A study of Mus musculus with 3 samples.

Results

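The 10 genes described here belong to the vascular endothelial growth factor (VEGF) and angiopoietin systems and were followed through the cell types of mouse islets of Langerhans. They were the ligand genes Vegfa, Vegfb, Vegfc, Angpt1 and Angpt2 and the receptor genes Kdr, Flt1, Nrp1, Tek and Tie1, named by symbol, and all 10 were found among 31053 genes of the feature list and had UMIs in the kept cells of every mouse. The islets came from 3 non-diabetic female NOD-SCID mice aged 10 to 11 weeks, 1 library per mouse, which form 1 group with no treatment named in the labels. NOD-SCID mice lack mature T and B cells, and that holds for all libraries. Messenger RNA 3′ ends were counted per cell on the 10x Genomics droplet platform as unique molecular identifiers (UMIs). Classes of cells were compared within these mice, and the question is which cells carry ligand RNA and which carry receptor RNA.

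VEGF-A, a secreted growth factor for blood vessels, signals in endothelial cells through the receptor tyrosine kinase VEGFR2, encoded by Kdr. VEGFR1, encoded by Flt1, binds VEGF-A, VEGF-B and placental growth factor with little kinase output of its own and also exists as a soluble form that traps ligand, and neuropilin 1, encoded by Nrp1, is a co-receptor shared with class 3 semaphorins. Angiopoietin 1 activates the endothelial receptor kinase Tie2, encoded by Tek, and steadies vessels, angiopoietin 2 can oppose it, and Tie1 is a related receptor that modifies Tie2. Islet capillaries are dense and fenestrated, and in mice they depend on VEGF-A made by islet cells.

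The genes' start regions are shown for the receptor genes Kdr, Flt1 and Tek, whose RNA was highest in the same class of cells, and for Vegfa, whose RNA was low in that class. Each is the 250 bases before the transcription start in RefSeq on GRCm38.p6, written 5′ to 3′ along the gene, from the reference strain and not from NOD-SCID mice. Capitals mark GGAAG or its reverse complement CTTCC in the receptor genes, letters found in many binding sites of ETS factors, a family that is known to drive endothelial genes. In Vegfa the capitals mark GGGCGG, the GC box letters bound by Sp1.
Kdr, chr5:75978456-75978705, minus strand: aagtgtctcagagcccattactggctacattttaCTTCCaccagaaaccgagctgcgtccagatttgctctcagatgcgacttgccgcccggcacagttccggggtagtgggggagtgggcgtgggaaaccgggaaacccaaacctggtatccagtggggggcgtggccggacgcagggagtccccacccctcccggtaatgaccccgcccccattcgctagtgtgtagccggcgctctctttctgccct
Flt1, chr5:147726012-147726261, minus strand: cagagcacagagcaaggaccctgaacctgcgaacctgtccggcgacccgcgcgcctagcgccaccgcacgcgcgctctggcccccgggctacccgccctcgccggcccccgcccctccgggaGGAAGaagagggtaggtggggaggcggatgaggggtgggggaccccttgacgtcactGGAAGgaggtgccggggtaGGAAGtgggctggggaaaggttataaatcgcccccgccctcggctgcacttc
Tek, chr4:94739039-94739288, plus strand: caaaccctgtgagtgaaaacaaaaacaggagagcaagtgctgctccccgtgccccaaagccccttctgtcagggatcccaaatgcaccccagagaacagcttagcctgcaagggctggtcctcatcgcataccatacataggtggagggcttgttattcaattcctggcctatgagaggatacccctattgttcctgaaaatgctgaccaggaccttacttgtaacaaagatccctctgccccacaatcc
Vegfa, chr17:46032378-46032627, minus strand: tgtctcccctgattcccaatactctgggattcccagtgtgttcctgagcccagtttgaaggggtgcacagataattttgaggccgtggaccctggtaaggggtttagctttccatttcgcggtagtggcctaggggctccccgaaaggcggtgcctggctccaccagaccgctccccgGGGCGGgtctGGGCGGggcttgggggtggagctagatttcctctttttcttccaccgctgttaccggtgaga
Both strands were searched. GGAAG occurred 1 time in Kdr, 3 times in Flt1, 0 times in Tek and 1 time in Vegfa, where it is not capitalised, and GGGCGG occurred 2 times in Vegfa, 2 in Kdr, 3 in Flt1 and 0 in Tek. Of 32851 promoter windows of this length, 64.1% held GGAAG and 32.7% held GGGCGG, so each motif is common. ACGTG, the core letters of hypoxia response elements, occurred 0 times in all of the 8 members with an entry and in 16.6% of all windows. A match is a description of letters in this window only. On GRCm38, Kdr lies on chromosome 5 from 75932827 to 75978458 and Flt1 on chromosome 5 from 147561604 to 147726011, both on the minus strand, Tek on chromosome 4 from 94739289 to 94874976 on the plus strand, and Vegfa on chromosome 17 from 46016993 to 46032369 on the minus strand. All are protein-coding genes.

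Levels are given as CPM, a gene's UMIs divided by all UMIs of the class in that mouse and scaled to the usual fixed total. The filters kept 1090, 2609 and 3474 cells of mice 1, 2 and 3, with medians of 6047.5, 5456 and 11394.5 UMIs per cell. Clusters were named from marker genes and are written with "-like". The cells fell into 796 beta-like, 1342 alpha-like, 776 delta-like, 262 gamma-like, 380 duct-like, 454 acinar-like, 373 endothelial-like, 162 pericyte-like, 65 fibroblast-like, 189 macrophage-like and 68 Schwann-like cells, and 2306 cells stayed unnamed. Endothelial-like cells numbered 49, 84 and 240 and pericyte-like cells 16, 28 and 118 in mice 1, 2 and 3. All 10 endothelial markers were detected in the endothelial-like sums, at 7317, 7509 and 9772 CPM together, and all 11 pericyte markers in the pericyte-like sums. Pericyte-like sums held 308, 313 and 699 CPM of endothelial markers, of which Esam gave 287, 307 and 569 CPM, while Cldn5, Erg and Robo4 were at 0. Mouse 3's pericyte-like sum also held 33.1 CPM each of Pecam1 and Emcn. Mouse 3 gave 816 of the 918 cells of 1 alpha-like cluster and 447 of the 494 cells of 1 delta-like cluster, so cluster and mouse are partly mixed there. Mice 1 and 2 shared 148 barcodes, 14 of them kept cells in both, and leaving out cells with a shared barcode changed no call given here. Free RNA, estimated from insulin UMIs, made up 12.7% to 25.4% of the endothelial-like and 15.5% to 38.3% of the pericyte-like sums.

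**Figure D1:**
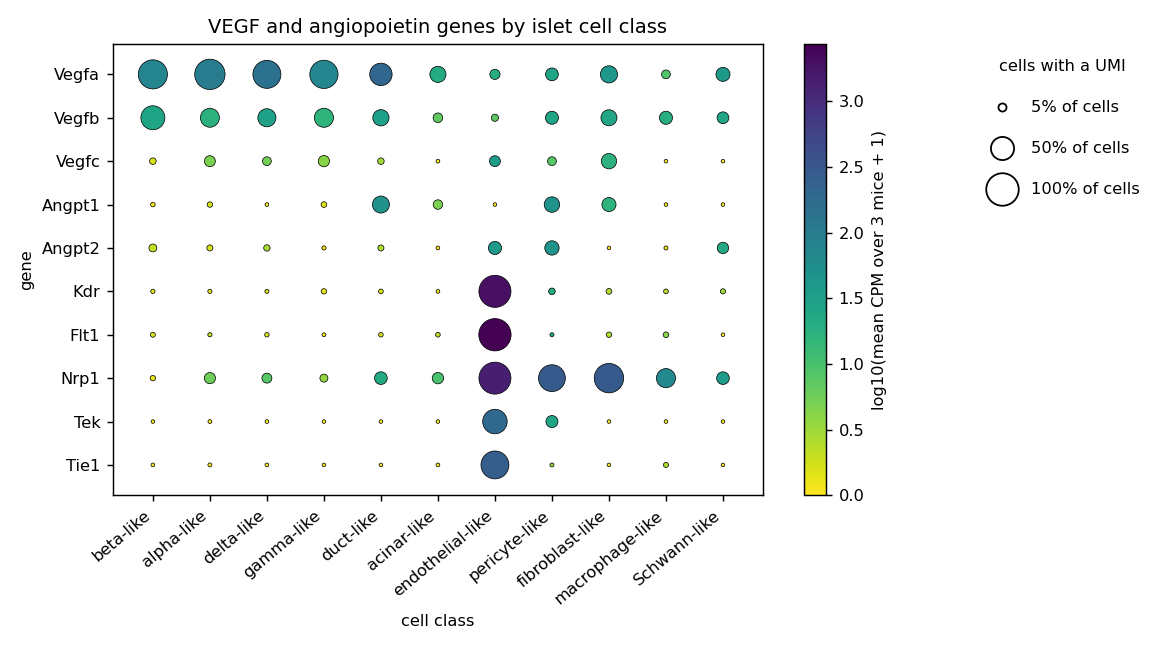
Dot plot of the 10 genes (rows) in 11 cell classes (columns): dot size is the percent of cells with at least 1 UMI and colour is log10 of the mean CPM over 3 mice plus 1. Kdr, Flt1, Tek and Tie1 stand out in the endothelial-like column, Vegfa in the endocrine and duct-like columns, and Angpt1 in duct-like and pericyte-like cells. The gamma-like, pericyte-like, fibroblast-like and Schwann-like classes rest on 12, 16, 6 and 6 cells in their smallest mouse.

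Vegfa RNA was found in every endocrine class and in duct-like cells and was low in the vessel cells. Its levels were 62.6, 59.4 and 100.3 CPM in beta-like, 88.5, 92.8 and 120.1 CPM in alpha-like, and 126, 138 and 161 CPM in delta-like cells of mice 1, 2 and 3. Duct-like cells had 226, 222 and 155 CPM. On the scale of all UMIs the order of the means was thus duct-like (201 ± 40.1, SD, n = 3), delta-like (142 ± 17.6), alpha-like (100.4 ± 17.1) and beta-like (74.1 ± 22.7), with gamma-like cells at 70.2 ± 6.97. Within each mouse beta-like cells lay below alpha-like and alpha-like below delta-like cells, although the ranges of beta-like and alpha-like cells overlapped, and the delta-like and duct-like ranges overlapped with the order reversed in mouse 3. Cells with at least 3 markers of another class numbered 29 of 380 duct-like, 197 of 776 delta-like, 133 of 1342 alpha-like and 79 of 796 beta-like cells. They held 325 of 1012 duct-like, 557 of 1482 delta-like, 455 of 3529 alpha-like and 519 of 2683 beta-like Vegfa UMIs.
Endothelial-like cells held 19.9, 12.9 and 25.5 CPM of Vegfa and pericyte-like cells 34.97, 12.3 and 30.9 CPM, and macrophage-like cells 7.61 ± 3.60 CPM. A Vegfa UMI was seen in 79.9% of beta-like cells (median 36573 UMIs per cell), in 8.68% of endothelial-like cells (4846) and in 6.13% of macrophage-like cells (7010), and the last 2 shares are close. Barcodes under the minimum of 500 genes carried 56.0, 49.3 and 97.2 CPM of Vegfa. The class levels leave out the unnamed cells. Unnamed clusters of 603 and 492 cells, matched best by beta markers, held 66.8 and 120.9 CPM of Vegfa. An unnamed cluster of 548 cells, matched best by an alpha marker, held 92.7 CPM.

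The classes differed in how much of their RNA was hormone RNA. Hormone genes took 66.9% to 71.7% of beta-like, 52.6% to 54.1% of gamma-like, 44.2% to 47.6% of alpha-like, 27.7% to 29.0% of delta-like and 1.49% to 3.91% of duct-like UMIs. With the hormone genes left out of the total, Vegfa stood at 236 ± 58.2, 186 ± 25.8, 198 ± 24.0 and 207 ± 43.5 CPM in beta-like, alpha-like, delta-like and duct-like cells (SD, n = 3), and gamma-like cells at 151 ± 12.3. The ranges of the first 4 classes overlapped, while within each mouse beta-like exceeded delta-like and delta-like exceeded alpha-like cells. Gamma-like cells had the lowest mean of the endocrine classes on both scales, though not the highest hormone share.
The fit used TMM scaling (trimmed mean of M values), which sets most genes level between classes. In it duct-like cells differed from the mean of beta-like, alpha-like and delta-like cells by -0.02 on the log2 scale (SE 0.13, edgeR adjusted p = 0.918), and by 1.01 without TMM (adjusted p = 6.19e-06). Leaving out TMM moved the median of all genes by 1.02 in that comparison, by 0.79 and 0.89 in endothelial-like and pericyte-like cells against the endocrine mean, and by -0.59, -1.25 and -0.65 in the beta-to-alpha, beta-to-delta and alpha-to-delta comparisons. Beta-like against alpha-like cells gave 0.14 (SE 0.15, edgeR adjusted p = 0.484) and -0.45 without TMM (adjusted p = 0.0282). Beta-like against delta-like cells gave 0.30 (SE 0.15, edgeR adjusted p = 0.134) and -0.96 without TMM (adjusted p = 9.24e-05). Alpha-like against delta-like cells gave 0.16 (SE 0.15, edgeR adjusted p = 0.473) and -0.51 without TMM. The sign of these Vegfa differences therefore changed with the scaling, but none of them was called in the fit with TMM. On TMM-scaled CPM beta-like exceeded alpha-like and alpha-like exceeded delta-like cells within each mouse. The beta-like mice (154 ± 29.8) lay above the delta-like mice (125 ± 7.56), and a fit of only the classes compared called that difference (0.29, adjusted p = 0.0246). Without mouse 3 the duct-like difference became 0.26 (edgeR adjusted p = 0.0186), and with every cell thinned to 2000 UMIs it became -0.59 (adjusted p = 0.0112).
Against the endocrine mean, Vegfa was 8.87-fold lower in endothelial-like cells (log2 -3.15, SE 0.23, edgeR adjusted p = 1.29e-11) and 7.17-fold lower in pericyte-like cells (log2 -2.84, SE 0.31, adjusted p = 3.06e-08), in 3 of 3 mice. With free RNA subtracted these differences were -4.35 and -3.85. Of all Vegfa UMIs in kept cells, beta-like cells held 25.8 ± 6.33%, alpha-like cells 31.0 ± 11.2%, delta-like cells 13.0 ± 3.53% and duct-like cells 11.8 ± 6.13% (SD, n = 3), shares that depend on which cells were captured.

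**Figure D2:**
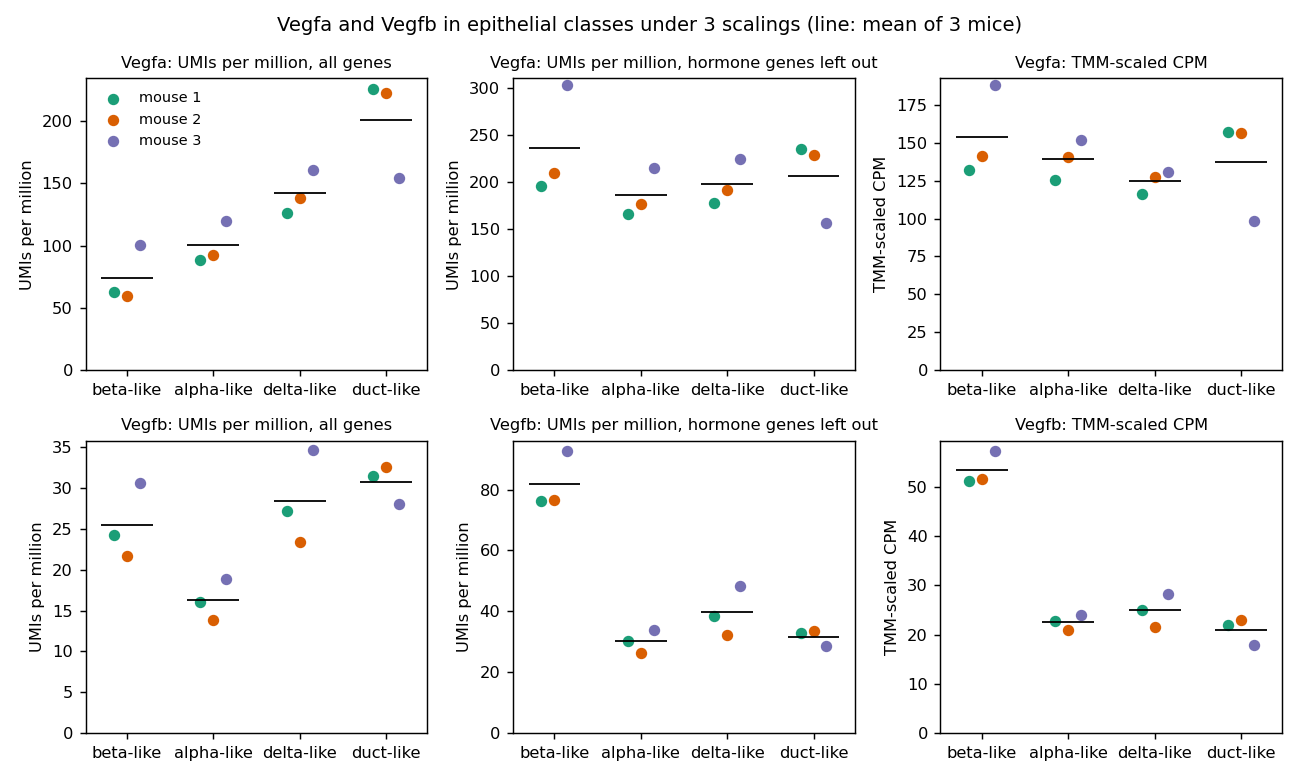
Vegfa (top) and Vegfb (bottom) in beta-like, alpha-like, delta-like and duct-like cells, per mouse (points) with the mean of 3 mice (line), as CPM of all genes, CPM without the hormone genes, and TMM-scaled CPM. The rise of Vegfa from beta-like (74.1) to duct-like (201) in CPM of all genes is absent in the other panels, where all pairs of classes overlap except beta-like and delta-like cells on the TMM scale, while Vegfb is highest in beta-like cells once hormone UMIs are left out.

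Vegfb, whose product binds VEGFR1 and not VEGFR2, was spread over more classes. It measured 24.3, 21.7 and 30.6 CPM in beta-like, 16.1, 13.8 and 18.9 CPM in alpha-like, 27.2, 23.4 and 34.7 CPM in delta-like and 31.5, 32.6 and 28.04 CPM in duct-like cells. Pericyte-like cells had 27.97, 24.6 and 24.3 CPM from 19 UMIs in all, and endothelial-like cells had 7.96, 1.61 and 9.46 CPM from 15 UMIs. Beta-like cells exceeded alpha-like cells in each mouse.
The beta-like excess over alpha-like cells was 2.37-fold (log2 1.25, SE 0.13, edgeR adjusted p = 3.98e-11) and was 0.65 on the log2 scale without TMM (adjusted p = 5.84e-05). Against delta-like cells the beta-like value was 1.08 higher on the log2 scale with TMM (SE 0.14, edgeR adjusted p = 1.38e-08) but -0.17 without it. Duct-like cells were -0.59 from the endocrine mean with TMM (SE 0.14, edgeR adjusted p = 0.000321) and 0.44 above it without (adjusted p = 0.00754), so that direction flips too. Alpha-like and delta-like cells differed by -0.16 (SE 0.15, edgeR adjusted p = 0.425), and this was called without TMM (-0.82, adjusted p = 1.58e-05) and with hormone genes left out (-0.42, adjusted p = 0.0221). Endothelial-like cells were 5.96-fold below the endocrine mean (log2 -2.58, SE 0.28, edgeR adjusted p = 1.22e-10), and pericyte-like cells were 1.74 above endothelial-like cells on the log2 scale (SE 0.50, adjusted p = 0.00580), a call lost without mouse 2 (1.39, adjusted p = 0.0534). The pericyte-like value against the endocrine mean, -0.83 (SE 0.31, edgeR adjusted p = 0.0265), was lost without mouse 3 (-0.56, adjusted p = 0.463), with a minimum of 250 genes (-0.47, adjusted p = 0.220), with the DESeq2 Wald test (adjusted p = 0.0588) and without cells with markers of another class (adjusted p = 0.0818), and was 0.06 without TMM.

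Vegfc, the gene of a ligand of VEGFR3 and VEGFR2 best known from lymphatic growth, was highest in endothelial-like cells. They held 37.8, 28.9 and 33.1 CPM, above every other class in each mouse, while alpha-like cells had 3.42, 2.93 and 5.33 CPM and delta-like cells 7.58, 2.34 and 3.30 CPM. Beta-like cells had 0.565 ± 0.129 CPM and duct-like cells 2.04 ± 0.717 CPM (SD, n = 3). The 3 UMIs of pericyte-like cells all came from mouse 1, and macrophage-like and Schwann-like cells had 0, which allows up to 2.09 and 7.66 CPM.
Endothelial-like cells exceeded the endocrine mean 8.78-fold (log2 3.13, SE 0.32, edgeR adjusted p = 1.68e-11). Within the islet epithelium Vegfc was 4.38-fold lower in beta-like than in alpha-like cells (log2 -2.13, SE 0.40, edgeR adjusted p = 2.69e-05). It was -1.39 in beta-like against delta-like cells (SE 0.49, edgeR adjusted p = 0.0203), a call lost without mouse 1 (adjusted p = 0.144) or mouse 3 (adjusted p = 0.0738). That call was also lost with a minimum of 250 genes (-1.17, edgeR adjusted p = 0.0596). In all, 21, 145 and 37 UMIs lay behind the beta-like, alpha-like and delta-like values, and 72 behind the endothelial-like value. A Vegfc UMI was seen in 10.0% of endothelial-like cells. Of all Vegfc UMIs in kept cells, alpha-like cells held 37.6 ± 13.1% and endothelial-like cells 23.6 ± 4.98% (SD, n = 3), shares that depend on which cells were captured.

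**Figure D3:**
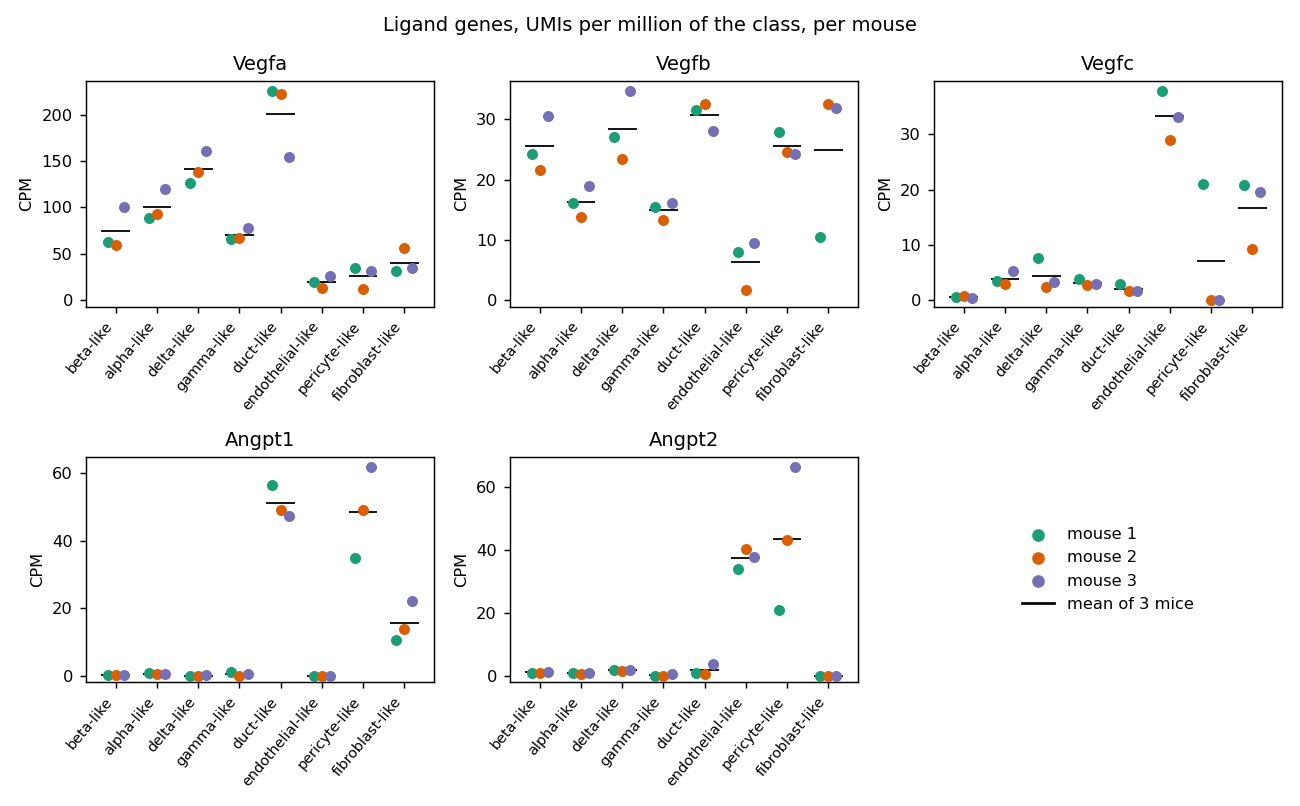
The 5 ligand genes in 8 classes, in CPM of each class's summed UMIs on a linear axis, per mouse (points) with the mean of 3 mice (line). Vegfa and Vegfb spread over endocrine and duct-like cells, and Vegfc is highest in endothelial-like cells (28.9 to 37.8 CPM). Angpt1 lies in duct-like (47.3 to 56.6 CPM) and pericyte-like cells, and Angpt2 has its highest CPM in endothelial-like and pericyte-like cells.

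Kdr, the gene of the main signalling receptor of VEGF-A, was almost wholly an endothelial RNA here. Endothelial-like cells held 1981, 1790.0 and 2209 CPM in mice 1, 2 and 3, and the endocrine sums (beta-like, alpha-like, delta-like) held 26 UMIs in all, or 0.329 CPM pooled. Of those UMIs, 1 of 8 beta-like, 8 of 11 alpha-like and 5 of 7 delta-like ones lay in cells with at least 3 markers of another class. A Kdr UMI was seen in 100%, 97.6% and 94.2% of endothelial-like cells at a median of 4846 UMIs per cell, against 0% to 0.775% of beta-like cells at 36573. The difference from the endocrine mean was 11.56 on the log2 scale (SE 0.31, edgeR adjusted p = 8.42e-12). Endothelial-like cells carried 99.2%, 92.8% and 97.7% of all Kdr UMIs in kept cells, and the unnamed cells of mouse 2 carried 6.08%.
Flt1, the gene of VEGFR1, was found in the same class. It stood at 2317, 2419 and 3440.0 CPM in endothelial-like cells, with mouse 3 above the others, and at 60 UMIs in the endocrine classes, 0.758 CPM pooled. Cells with at least 3 markers of another class held 8 of 23 beta-like, 22 of 30 alpha-like and 5 of 7 delta-like Flt1 UMIs. In mouse 2, all 21 alpha-like Flt1 UMIs sat in 1 cell. Its difference from the endocrine mean was 11.10 (SE 0.39, edgeR adjusted p = 2.81e-10), and 96.5 ± 3.77% of its UMIs lay in endothelial-like cells (SD, n = 3). Counts of 3′ ends do not tell the soluble from the membrane form.
Duct-like cells had 3 UMIs each of Kdr and Flt1. Pericyte-like cells had 1, 0 and 25 UMIs of Kdr and 0, 0 and 27 of Flt1, and all 27 Flt1 UMIs sat in 1 of 118 cells of mouse 3 (0.847%). In all, 9 pericyte-like cells carried at least 3 markers of another class, and they held 23 of the 26 Kdr UMIs and all 27 Flt1 UMIs. The pericyte-like sums passed the test against the endocrine mean for Kdr (log2 5.41, SE 0.93, edgeR adjusted p = 0.000559) and Flt1 (4.49, SE 1.14, adjusted p = 0.00834), but the mice overlapped with the endocrine values. Without mouse 3, Kdr was 2.48 (adjusted p = 0.396), and with clusters from variable genes 2.85 (adjusted p = 0.0828), and Flt1 was -4.06, and without the cells with markers of another class Kdr was 3.32 (adjusted p = 0.0142) and Flt1 was -3.62.
Against endothelial-like cells, pericyte-like cells were 70.7-fold lower for Kdr (log2 -6.14, SE 0.45, edgeR adjusted p = 6.61e-07) and 97.4-fold lower for Flt1 (log2 -6.61, SE 0.61, adjusted p = 7.03e-06). Without mouse 3 these differences were -9.23 and -15.29, both called, so the printed folds rest on mouse 3. Mice 1 and 2 had 0 pericyte-like UMIs of Flt1, so its value there depends on the fit's prior count and is no bound. Without cells with markers of another class, where Flt1 also had 0 UMIs, it was -15.81.

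Nrp1 was found in vessel, stromal and some epithelial cells. Endothelial-like cells held 1319, 1308 and 1616 CPM, pericyte-like cells 203, 338 and 366 CPM, and fibroblast-like cells 408, 135 and 358 CPM. Macrophage-like cells held 98.8, 58.4 and 39.9 CPM and Schwann-like cells 33.5, 31.0 and 38.1 CPM. Cells with at least 3 markers of another class held 141 of the 214 fibroblast-like and 39 of the 78 macrophage-like Nrp1 UMIs. Pericyte-like and fibroblast-like cells overlapped, and both lay below endothelial-like cells in every mouse.
The epithelial classes held less, with 27.2, 10.7 and 25.3 CPM in duct-like, 6.95, 4.67 and 8.51 CPM in delta-like and 4.23, 4.19 and 5.79 CPM in alpha-like cells. Beta-like cells had 11 UMIs in all, 0.922, 0.110 and 0.251 CPM. Cells with at least 3 markers of another class held 29 of 104 duct-like, 29 of 72 delta-like, 30 of 168 alpha-like and 5 of 11 beta-like Nrp1 UMIs. A Nrp1 UMI was seen in 96.7% of endothelial-like, 67.5% of pericyte-like, 10.7% of alpha-like and 1.53% of beta-like cells, and of these the beta-like cells were the deepest.
Endothelial-like cells exceeded the endocrine mean by 8.53 on the log2 scale (SE 0.16, edgeR adjusted p = 5.21e-22), and pericyte-like cells exceeded it by 6.22 (SE 0.23, adjusted p = 6.97e-16). Pericyte-like cells were 4.96-fold below endothelial-like cells (log2 -2.31, SE 0.19, edgeR adjusted p = 3.31e-09). Duct-like cells were 4.60-fold above the endocrine mean (log2 2.201, SE 0.28, edgeR adjusted p = 3.81e-07), and beta-like cells were 9.62-fold below alpha-like cells (log2 -3.27, SE 0.43, adjusted p = 1.65e-06) and 8.65-fold below delta-like cells (log2 -3.11, SE 0.47, adjusted p = 1.48e-05). Mouse 1 held 6 of the 11 beta-like UMIs, and leaving out 1 mouse moved these values between -4.13 and -2.78 and between -3.91 and -2.68, lowest without mouse 1. With cells thinned to 2000 UMIs the duct-like, beta-to-alpha and beta-to-delta calls were lost (1.39, -2.25 and -1.61, edgeR adjusted p = 0.0790, 0.125 and 0.401), and each kept its direction.

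**Figure D4:**
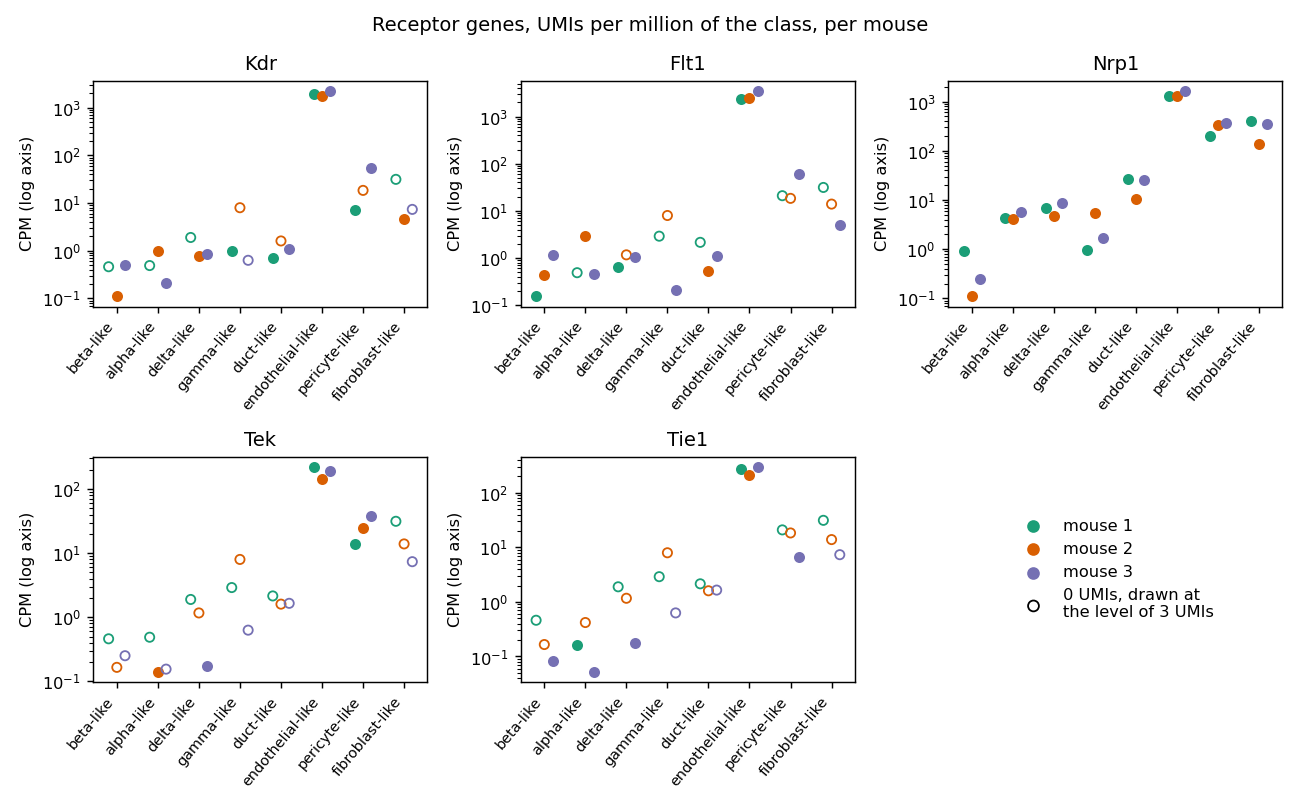
The 5 receptor genes in 8 classes, in CPM on a log axis, per mouse (filled points); open points mark 0 UMIs and are drawn at the level that 3 UMIs would give. Kdr, Flt1, Tek and Tie1 of endothelial-like cells lie above all other classes in each mouse, and Nrp1 is also seen in pericyte-like (203 to 366 CPM) and fibroblast-like cells.

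Angpt1, the gene of the Tie2 agonist, lay in duct-like and pericyte-like cells. Duct-like cells held 56.6, 49.1 and 47.3 CPM and pericyte-like cells 34.97, 49.1 and 61.8 CPM, and the mice of these classes overlapped. Fibroblast-like cells had 15.5 ± 5.96 CPM and acinar-like cells 3.95 ± 1.07 CPM (SD, n = 3). Endothelial-like, macrophage-like and Schwann-like cells had 0 UMIs, which allows up to 1.37, 2.09 and 7.66 CPM, and the endocrine sums (beta-like, alpha-like, delta-like) had 26 UMIs among them.
Duct-like cells exceeded the endocrine mean 99.7-fold (log2 6.64, SE 0.26, edgeR adjusted p = 3.04e-24), and pericyte-like cells exceeded it 113-fold (log2 6.82, SE 0.45, adjusted p = 1.19e-16). The pooled pericyte-like level was 39.3 times the level that 3 UMIs would give over all endothelial-like cells. That ratio leaves out the counting error of the 41 pericyte-like UMIs and the spread between mice. An Angpt1 UMI was seen in 25.0%, 23.0% and 31.6% of duct-like cells, and duct-like cells held 71.1 ± 8.67% of all Angpt1 UMIs in kept cells (SD, n = 3). Of the markers of other classes, the duct-like sums held Rgs5, a pericyte marker, at 518, 551 and 642 CPM and Ecscr, an endothelial one, at 176, 195 and 199 CPM, Tagln reached 69.3 CPM, Acta2 reached at most 0.550 CPM and Higd1b, Des and Myh11 were at 0. The 29 duct-like cells that carried at least 3 markers of another class held 75 of the 257 Angpt1 UMIs, and without them the Angpt1 difference was 6.26 (edgeR adjusted p = 2.52e-24).

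Angpt2, the gene of the context-dependent Tie2 ligand, had its highest mean CPM in the vessel cells. Endothelial-like cells held 33.8, 40.2 and 37.8 CPM and pericyte-like cells 21.0, 43.0 and 66.2 CPM. Schwann-like cells had 40.2, 0 and 23.8 CPM from 11 UMIs, fibroblast-like cells had 0 UMIs (up to 4.17 CPM), and the endocrine sums (beta-like, alpha-like, delta-like) had 1.05 CPM pooled. Endothelial-like cells exceeded the endocrine mean 18.9-fold (log2 4.24, SE 0.30, edgeR adjusted p = 2.54e-16) and pericyte-like cells 22.4-fold (log2 4.49, SE 0.39, adjusted p = 4.91e-13). The vessel classes overlapped and differed by 0.25 (SE 0.37, edgeR adjusted p = 0.701), a difference that was -0.29 without mouse 3. Few cells showed the RNA, with a UMI in 15.3% of endothelial-like and 18.4% of pericyte-like cells. Of all Angpt2 UMIs in kept cells, endothelial-like cells held 34.4 ± 5.42% and pericyte-like cells 12.7 ± 7.50% (SD, n = 3). Beta-like, alpha-like and delta-like cells held 16.4 ± 9.05%, 9.95 ± 2.15% and 6.79 ± 0.895%, shares that depend on which cells were captured.

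Tek, the gene of the angiopoietin receptor Tie2, measured 221, 145 and 192 CPM in endothelial-like cells. Pericyte-like cells held 14.0, 24.6 and 37.5 CPM from 2, 4 and 17 UMIs, and beta-like, gamma-like, duct-like, acinar-like, fibroblast-like, macrophage-like and Schwann-like cells had 0 UMIs. The endocrine classes had 2 UMIs together, 1 in alpha-like and 1 in delta-like cells, both in cells with markers of another class. The ratio of pooled CPM was 7326 for endothelial-like cells (exact 95% counting interval 2015 to 60700) and 1199 for pericyte-like cells (296 to 10491). Such intervals cover counting error only, and these ratios are of CPM without TMM and are not on the scale of the fitted folds of the other receptor genes. Pericyte-like cells were 6.77-fold below endothelial-like cells (log2 -2.76, SE 0.30, edgeR adjusted p = 1.42e-09), and the difference was -2.91 without the cells that carried markers of another class, which held 5 of the 23 UMIs.
Tie1 stood at 276, 212 and 299 CPM in endothelial-like cells, and the endocrine classes had 4 UMIs (log2 difference 10.88, SE 0.22, edgeR adjusted p = 1.01e-34). The 3 pericyte-like UMIs came from 1 cell of mouse 3 with markers of another class, against which the endothelial-like level was 68.1 times as high (exact 95% counting interval 23.2 to 331). Duct-like cells had 0 UMIs of Tek and of Tie1, which allows up to 0.590 CPM.

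**Figure D5:**
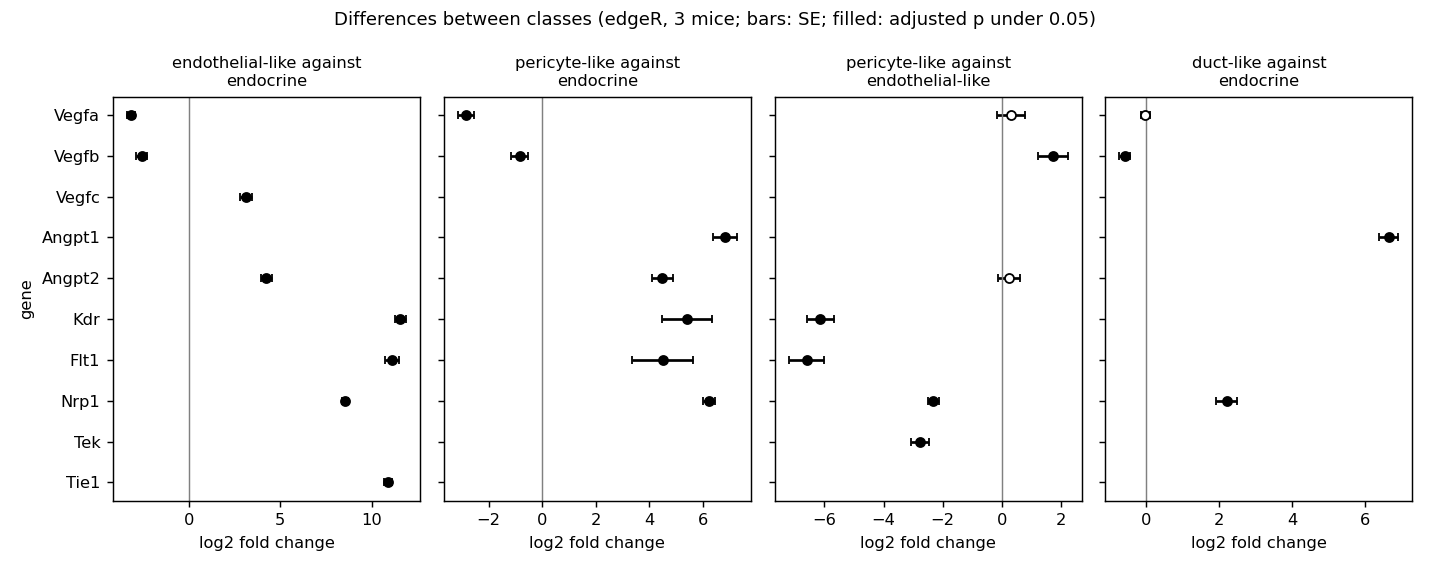
Log2 fold changes of the members in 4 comparisons (edgeR on the sums of 3 mice, bars: SE, filled: adjusted p under 0.05), shown where at least 1 side reached 3 CPM and no side had under 4 UMIs. Kdr, Flt1 and Tie1 exceed the endocrine mean by 10.88 to 11.56 in endothelial-like cells, Angpt1 exceeds it by 6.64 in duct-like and 6.82 in pericyte-like cells, and the pericyte-like Kdr and Flt1 points rest on mouse 3.

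Counted over the members, 7 of 10 were higher and 2 lower in endothelial-like cells than in the endocrine mean, where 61.3% of the 12375 genes tested were called, 29.3% higher and 32% lower. Higher were Kdr, Flt1, Nrp1, Tek, Tie1, Vegfc and Angpt2, lower were Vegfa and Vegfb, and Angpt1 had 0 against 26 UMIs and did not pass. Pericyte-like against endothelial-like cells gave 2 higher (Vegfb, Angpt1) and 6 lower (Kdr, Flt1, Nrp1, Tek, Tie1, Vegfc) with 26.9% of genes called (11.7% higher, 15.2% lower), and pericyte-like cells against the endocrine mean gave 7 higher and 2 lower with 42% called (20.2% higher, 21.8% lower). Of those 7, Nrp1, Tek, Angpt1 and Angpt2 were higher in each mouse, while Kdr, Flt1 and Tie1 overlapped between groups and had most UMIs in a few cells of mouse 3, and the 2 lower were Vegfa and Vegfb. Duct-like cells against the endocrine mean gave 2 higher (Nrp1, Angpt1) and 1 lower (Vegfb) with 63.6% called (32% higher, 31.6% lower). Only 4 of the 10 members reached 3 CPM on a side of that comparison, and the called members were among them. Beta-like against alpha-like cells gave 2 higher (Vegfb, Angpt2) and 2 lower (Vegfc, Nrp1; 41.5% called, 20.6% higher and 20.9% lower), beta-like against delta-like cells 1 higher (Vegfb) and 2 lower (Vegfc, Nrp1; 38.5%, 19.5% higher and 18.9% lower), and alpha-like against delta-like cells 1 higher and 0 lower (34.2%, 17.5% higher and 16.7% lower). The small calls among them were Angpt2 in beta-like against alpha-like cells, at 39 and 26 UMIs, and Angpt1 in alpha-like against delta-like cells, at 19 and 1 UMIs.

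Single endothelial-like cells often showed several receptor genes. Of 373 endothelial-like cells, 355 had UMIs of both Kdr and Flt1, 345 of both Kdr and Nrp1, and 153 of both Tek and Tie1, while 49 had Tek alone, 109 had Tie1 alone and 62 had neither. At 2000 UMIs per cell, 91.8%, 89.2% and 88.6% of endothelial-like cells of mice 1, 2 and 3 still showed at least 3 of the 5 receptor genes, against 0%, 0% and 0.980% of pericyte-like cells. At that depth 40 of 342 endothelial-like cells had both Tek and Tie1. With all UMIs, 3 endothelial-like cells had both Vegfc and Angpt2, 31 had Vegfc and 48 had Angpt2 alone, and 6 pericyte-like cells had both Angpt1 and Angpt2, 29 had Angpt1 and 24 had Angpt2 alone. Of 380 duct-like cells, 86 had both Vegfa and Angpt1, 95 had Vegfa and 15 had Angpt1 alone. Such counts rise with depth, and at 2000 UMIs the duct-like cells with both numbered 6 of 327. The 2 endothelial-like clusters, of 317 and 56 cells, held Kdr at 1979 and 2398 CPM and Flt1 at 2750.4 and 3757 CPM, and no test was made between them.

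Related family genes, from a list made with earlier results of these data known, filled in other pairs. Pgf, the gene of placental growth factor, a ligand of VEGFR1, was at 112, 190.4 and 185 CPM in pericyte-like cells and at 42.3, 39.7 and 66.8 CPM in delta-like cells, against 1.37 ± 0.0240 CPM in beta-like cells and 1 UMI in endothelial-like cells. It was lower in beta-like than in delta-like cells by -3.93 (SE 0.21, edgeR adjusted p = 2.45e-19) and in beta-like than in alpha-like cells by -3.13 (SE 0.21, adjusted p = 3.06e-16). Nrp2, the second neuropilin, was highest in endothelial-like cells, at 101.4, 149.6 and 191.1 CPM, and pericyte-like cells held 42.6 ± 6.08 CPM. Delta-like cells had 15.2, 16.7 and 30.7 CPM of Nrp2. Beta-like and alpha-like cells had under 1 CPM of it in each mouse (log2 -4.22 and -4.34 against delta-like cells, SE 0.30 and 0.29). Flt4, the gene of VEGFR3, was at 123 ± 36.2 CPM in endothelial-like cells and at 0 UMIs in beta-like, alpha-like and delta-like cells, and Ptprb, which encodes the Tie2 phosphatase VE-PTP, was at 1001 ± 89.0 CPM there. Of the 6 genes, 4 were tested, and 3 were higher and 1 (Pgf) lower in endothelial-like cells than in the endocrine mean (median log2 8.16, against -0.12 over all genes).

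The other lists describe the surroundings of these signals. Beside their counts stand the shares of all genes called, 61.3% in endothelial-like and 63.6% in duct-like cells against the endocrine mean, 26.9% in pericyte-like against endothelial-like cells, 41.5% in beta-like against alpha-like and 38.5% in beta-like against delta-like cells. Of 12 genes of the endothelial response to VEGF and of fenestrae, 10 were tested and all 10 were higher in endothelial-like cells than in the endocrine mean (median log2 7.49, against -0.12 over all genes), and all 10 were higher there than in pericyte-like cells. Plvap, which encodes the protein of fenestral diaphragms, stood at 4121, 3714 and 5779 CPM and Esm1, a gene of endothelial tip cells, at 2162, 1898 and 2383 CPM. Aplnr, the apelin receptor gene, had 0 pericyte-like UMIs and 115, 90.1 and 159.8 CPM in endothelial-like cells, and Foxo1, a transcription factor gene, was lower in pericyte-like cells (log2 -6.31, SE 0.57, edgeR adjusted p = 2.23e-12).
Of 13 genes of signals between endothelial and mural cells, 12 were higher and 0 lower in endothelial-like cells than in the endocrine mean, and S1pr1 and Eng led. Pdgfb, the ligand gene that recruits pericytes, had 165 ± 17.1 CPM in endothelial-like cells, and its receptor gene Pdgfrb had 485 ± 60.1 CPM in pericyte-like cells and 2 UMIs in endothelial-like cells (log2 8.90 in pericyte-like against endothelial-like cells, SE 0.42, edgeR adjusted p = 3.84e-20). Duct-like cells showed 11 of the 13 higher and 0 lower against the endocrine mean, led by Ephb4 (24.0 ± 7.67 CPM) and Cxcl12 (35.7 ± 4.53 CPM).
Of 12 semaphorin and plexin genes that pair with neuropilins, 11 were tested, and 7 were higher and 2 lower in endothelial-like cells than in the endocrine mean (median log2 3.05). Sema3f and Plxnd1 led, at 149 ± 13.9 and 180 ± 54.1 CPM, while Plxna3 had 0 UMIs in endothelial-like cells. Duct-like cells showed 8 higher and 1 lower, led by Sema3d (9.72 ± 1.31 CPM) and Sema3f (35.2 ± 9.86 CPM), and against delta-like cells beta-like cells showed 1 higher and 5 lower, with Plxna4 and Sema3e the lowest.
Of 16 hypoxia response genes, as Vegfa is known to be, 15 were tested. Endothelial-like cells showed 9 higher and 2 lower than the endocrine mean (median log2 0.94), led by Epas1 (671 ± 129 CPM) and Ldha (232 ± 73.8 CPM), and duct-like cells 7 higher and 5 lower (median 0.04, against -0.01 over all genes). Beta-like against alpha-like cells gave 3 higher and 4 lower, and beta-like against delta-like cells 5 higher and 4 lower, with Slc2a1, the glucose transporter gene, higher in beta-like cells in both (log2 1.65 and 0.90, SE 0.29 and 0.30). Without TMM the beta-to-delta value of Slc2a1 was -0.35.

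Over the 18 sums of beta-like, alpha-like, delta-like, duct-like, endothelial-like and pericyte-like cells of the 3 mice, the genes most like a member were named by Pearson's r of log2(CPM + 10). These points share classes, libraries and depth, and the values are descriptions. Vegfa was most like Slc37a1 (0.974), Rab25 (0.962) and Crb3 (0.962), the last 2 of which are known from epithelial cells. Kdr was most like Esm1 (0.997), Ptprb (0.997) and Plvap (0.997), Flt1 like Ly6c1, Ptprb and Gpihbp1 (0.999 each), and Tek like Calcrl (0.994), Cd93 (0.994) and Slfn5 (0.993). Nrp1 was most like Gulp1 (0.991), Caskin2 (0.990) and Ggta1 (0.990), and Tie1 was most like Lpar4, AU021092 and Exoc3l2 (all above 0.999). Angpt1, shared by duct-like and pericyte-like cells, was most like Fads3 (0.996) and Fxyd1 (0.986).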

How the data were processed

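Single-cell RNA was measured in islets of 3 mice, 1 library each. Alignment to mm10 and counting with Cell Ranger 2.2 are per the submitters' processing notes, and the header of the deposited count matrices names software version 3.1.0. The values are raw UMI counts per gene and barcode as the authors deposited them, not normalized. Strand and intron settings are not given in the sources used here.

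Cells needed 500 genes or more and no more than 15% mitochondrial UMIs. The 55, 96 and 166 cells with the highest Scrublet scores (scanpy 1.11.5) were removed as doublets, a number set from the barcodes per library. An automatic threshold would have removed 9, 9 and 13. The libraries held 32389170, 48076507 and 57849496 UMIs in 6005, 4444 and 5713 barcodes. Cells were clustered (Leiden, resolution 1, 20 components, 20 neighbours) on 122 markers of 18 cell types that hold none of the 10 genes or of the 59 pathway genes, and named from the markers. The members, lists and markers were chosen with earlier results of these data known.

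UMIs were summed per mouse and class (at least 10 cells) and tested with edgeR 4.0.16 (R 4.3.3; TMM, filterByExpr, robust quasi-likelihood F test, mouse as block, Benjamini-Hochberg over 12375 genes, threshold 0.05) in 1 fit of 18 sums. The block pairs the classes of the same mouse. The endocrine mean is the mean of the beta-like, alpha-like and delta-like terms. A fitted fold is printed where at least 1 side reached 3 CPM pooled, a limit chosen after values were seen. The script was tested on simulated data. Members under that limit are described by their levels. The rule names the members and, of each list, up to 2 genes per direction with the largest called change. A gene that the rule for like patterns named is not reported here. Alternatives numbered 20, of which 3 were added after seeing the data. Depth limits the rare classes, and intervals and floors cover counting error only.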

Additional observations from a re-analysis of the deposited data

How the results depend on the processing

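Without TMM, the genes called higher and lower numbered 6567 and 1896 in endothelial-like cells against the endocrine mean (3624 and 3958 with TMM), 5305 and 961 in pericyte-like cells (2498 and 2700), 8758 and 1347 in duct-like cells (3960 and 3914), 868 and 7310 in beta-like against alpha-like cells (2555 and 2585), 338 and 10283 in beta-like against delta-like cells (2418 and 2342), and 608 and 7745 in alpha-like against delta-like cells (2167 and 2063). With hormone genes left out and no TMM, beta-like against alpha-like cells gave 3958 genes higher, and 1245 were higher and 3766 lower in alpha-like than delta-like cells. Without TMM the log2 values were -0.45, -0.96 and -0.51 for Vegfa in the beta-to-alpha, beta-to-delta and alpha-to-delta comparisons, 1.01 for Vegfa and 0.44 for Vegfb in duct-like cells, 0.0604 for Vegfb in pericyte-like cells against the endocrine mean, -0.17 for Vegfb in beta-like against delta-like cells, and -0.50 for Nrp1 in alpha-like against delta-like cells. With hormone genes left out, Vegfa and Nrp1 gave -0.0937 and -0.11 in alpha-like against delta-like cells.

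Thinned to 2000 UMIs per cell, the genes higher and lower numbered 1678 and 1436 in endothelial-like, 1197 and 1047 in pericyte-like and 1432 and 1073 in duct-like cells against the endocrine mean, 585 and 878 in pericyte-like against endothelial-like cells, 460 and 501 in beta-like against alpha-like, 425 and 450 in beta-like against delta-like and 509 and 459 in alpha-like against delta-like cells. Fewer UMIs enter that fit by construction. Mean levels at 2000 UMIs were 125.5 CPM for Vegfa, 23.02 for Vegfb and 22.97 for Angpt1 in duct-like cells and 23.32 for Vegfc in endothelial-like cells, and Vegfa in pericyte-like against endothelial-like cells was -0.63. A fit of only the classes compared called 1250 genes lower in pericyte-like than endothelial-like cells (1883 in the joint fit).

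Vegfa in duct-like cells, -0.02 in the joint fit, was also 0.00662 with clusters from variable genes, 0.0123 with DESeq2 size factors, 0.0214 with the DESeq2 Wald test, 0.0234 without the low-count filter, 0.0063 with only the classes compared and 0.0261 with hormone genes left out. Clusters from variable genes gave -4.24 for Flt1 in pericyte-like cells against the endocrine mean and -0.26 for Nrp1 in alpha-like against delta-like cells. Leaving out cells with markers of another class gave -3.62 for that Flt1 value, and a minimum of 250 genes gave -0.00331 for Angpt2 in pericyte-like against endothelial-like cells. Leaving out 1 mouse at a time, genes called higher ranged from 868 to 1249 in pericyte-like against endothelial-like cells, from 1554 to 2344 in pericyte-like cells against the endocrine mean (lower: 1598 to 2347) and from 1429 to 1899 in alpha-like against delta-like cells. Kdr and Flt1 in pericyte-like against endothelial-like cells ranged from -9.23 to -5.84 and from -15.29 to -6.31. In the same way Angpt2 in pericyte-like against endothelial-like cells ranged from -0.29 to 0.45, Flt1 in pericyte-like cells against the endocrine mean from -4.06 to 5.13, and Vegfa in duct-like cells from -0.19 to 0.26, and the sign changed without mouse 3 in each. The cause of these changes was not tested.

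The fit with no replicate block changed no call of a member, and Angpt1 in duct-like cells was 6.68 there against 6.64 with the block. Kdr, Flt1, Nrp1 and Tie1 in endothelial-like cells against the endocrine mean kept direction and call under every alternative run. The planned removal of cells with 3 markers of another class gave no value because acinar markers were found in nearly all cells, and the version without acinar markers replaced it. Low genes that the low-count filter removed under thinning or in a fit of only the classes compared gave no value there. The sums of pericyte-like cells, at 16 and 28 cells in mice 1 and 2, limit what could be seen there.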

Other observations

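Stromal and glial cells outside the comparisons also carried parts of these signals. Fibroblast-like cells, 65 in all, held Vegfd, the gene of a second VEGFR3 ligand, at 20.9, 27.9 and 152.1 CPM and Vegfc at 16.6 ± 6.38 CPM (SD, n = 3), while beta-like cells had 0 UMIs of Vegfd. Of these cells, 35 carried markers of another class, and hormone genes took 34.7% of the UMIs in mouse 2, where insulin genes made up 33.3% of UMIs against 13.5% in free RNA. Schwann-like cells held Angpt2 at 40.2, 0 and 23.8 CPM from 11 UMIs, of which 6 sat in cells that also carried markers of another class. Macrophage-like cells held Nrp1 in 33.8 ± 8.37% of cells (SD, n = 3). Of the 189 macrophage-like cells, 81 also carried markers of another class and held 39 of the 78 Nrp1 UMIs. No test was made in these classes, which had as few as 6 cells in a mouse.

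Among cells left unnamed, a cluster of 603 cells, 506 of them from mouse 2, held 67 Kdr and 76 Flt1 UMIs, at 22.9 and 26.03 CPM. These values belong to no comparison above.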
